A study of Mus musculus with 4 samples.

Results

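Cytosolic ribosomes carry about one copy each of the ribosomal proteins of a large and a small subunit, and the genes that encode these proteins are the subject here. They were taken by symbol: Rpl or Rps followed by a number and at most 1 letter (a, l or x), with Rplp0, Rplp1, Rplp2 and Rpsa added, and FPKM, a fragment count divided by transcript length and by sequencing depth, was summed per symbol. The rule found 80 of the 23309 gene symbols, 49 for the large subunit and 31 for the small, and each sat on 1 row. The rule itself uses no measured value, though earlier results of these data were known when the members were chosen.

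The study sequenced messenger RNA of oocytes from ICR mice, in 4 libraries of 60 pooled oocytes each, taken from females aged 21 to 23 days. The groups were MII oocytes labelled Erk-/-, wild-type MII oocytes, Erk-/- GV oocytes and wild-type GV oocytes, with 1 library each. GV (germinal vesicle) oocytes are fully grown and arrested before meiosis resumes, and MII oocytes are mature eggs arrested in the second meiotic metaphase. The protocol text names PMSG and hCG, hormones that drive follicle growth and ovulation, and it names Btg4-/- where the titles say Erk-/-, so groups were taken from the titles. ERK1 and ERK2 are the kinases at the end of the MAP kinase cascade, and the sources used here give neither the allele nor any Cre driver behind the genotype.

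Without replicates no difference below has a test, a standard error or a p-value, and each compares single libraries. A gene is called higher or lower where log2((FPKM + 1)/(FPKM + 1)) is past 2-fold, among the 9990 genes that averaged 1 FPKM or more over the libraries. Mapk3, which encodes ERK1, had 34.3 FPKM in the MII library labelled Erk-/- and 25.7 in wild-type MII, so it was not lower under that label. At GV it had 52.3 FPKM in Erk-/- and 333 in wild type. Whether the MII label is right was not tested. All 12 oocyte markers were above 0 in every library, with a summed level of 15702 to 20236 FPKM. The 16 granulosa and cumulus markers summed to between 13.7 and 29.5 FPKM, with Amh, Foxl2 and Fshr listed at 0 throughout. Most of that sum was Cyp19a1, Inha and Nr5a2. Cyp19a1 had 10.8 FPKM in labelled Erk-/- MII, 21.8 in wild-type MII, 0 in Erk-/- GV and 15.5 in wild-type GV. Inha had 11.3 FPKM in Erk-/- GV and 3.80 in wild-type GV, and Nr5a2 had 17.0 and 6.84. The 10 markers of other ovarian and blood cells summed to between 27.1 and 64.4 FPKM, nearly all of it Pecam1. FPKM is relative to each library's total, so less RNA per oocyte and fewer intact oocytes in a pool cannot be told apart.

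Ribosomal protein mRNAs are a textbook case of coordinated translation. Most begin with a 5′ terminal oligopyrimidine tract, a cap-proximal C followed by a run of pyrimidines, through which mTOR signalling and the RNA-binding protein LARP1 control when they are translated and how stable they are. Fully grown mouse oocytes make almost no new mRNA and live on stored transcripts, many of which are cleared during maturation. In frog (Xenopus) oocytes, ribosomal protein mRNAs are known to lose their poly(A) tails and leave polysomes at maturation, while mRNAs with a cytoplasmic polyadenylation element (a U-rich element near the 3′ end) gain tails.

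The tract is printed first for members picked, among those that had one, from towards both ends of the wild-type maturation order described below. Being picked this way, they do not show how the tract relates to that order. A tract was taken as at least 8 C or T in a row beginning with C on the sense strand, within 50 bases on either side of the RefSeq transcription start (GRCm38.p6). Such a run was found in 51 of the 60 members with a RefSeq start, or 85%, against 32.0% of 27025 genes. Its median length was 11 bases in the members that had it, against 10 in all genes that had it. The members kept highest in wild-type MII relative to GV, among those with a tract, were Rpl34 (chr3:130730330-130730359, minus strand), Rps2 (chr17:24720083-24720112, plus), Rps12 (chr10:23787181-23787210, minus) and Rpl22 (chr4:152325679-152325708, plus), with the tract in capitals.
Rpl34: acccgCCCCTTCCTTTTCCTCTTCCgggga
Rps2: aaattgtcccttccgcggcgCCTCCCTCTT
Rps12: caccgccggCCTTTTCCCCTgccgccgccg
Rpl22: ccgtctgaCTCCTCCCTTTCCCgacagccg
Among the lowest of those with a tract were Rps15 (chr10:80292447-80292476, plus), Rpl38 (chr11:114668569-114668598, plus), Rpl12 (chr2:32961732-32961761, plus) and Rpl36a (chrX:134585673-134585702, plus).
Rps15: cagcccgtaCTTCCTTTTCCgagtaaccgc
Rpl38: gaagcctcgttCTTTCCCCgttctcttcgg
Rpl12: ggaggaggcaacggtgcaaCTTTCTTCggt
Rpl36a: ggctctagCCTCTCTCTTTCCgagctgcta
With the annotated start as base 1, the tract of Rpl38 began at base 1 and that of Rps12 at base 9. Those of Rps15, Rpl36a, Rpl12 and Rps2 began at bases 26, 28, 40 and 41. Those of Rpl34 and Rpl22 began 17 and 39 bases before the start, and the 14 bases of Rpl22 also ended before it. The printed runs are therefore not all cap-proximal by this annotation. Among members, the wild-type maturation ratio had a median of -2.96 (log2) in the 48 tested genes with a tract and -3.87 in the 9 without one. The 9 without one ran from -8.32 to 0.17, so they too stood near both ends. Over all tested genes the medians were -0.98 with a tract and -0.97 without.

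Ribosomal protein mRNA took 2.32% of all FPKM in the MII library labelled Erk-/- and 1.31% in wild-type MII, against 5.14% in Erk-/- GV and 5.45% in wild-type GV. The summed level of the 80 genes was 9599 FPKM in labelled Erk-/- MII, 5252 in wild-type MII, 21621 in Erk-/- GV and 24716 in wild-type GV. The pool was therefore smallest in wild-type mature eggs and about alike in the GV libraries. A typical member had 41.4 FPKM in labelled Erk-/- MII and 14.9 in wild-type MII, and 195 in Erk-/- GV and 223 in wild-type GV (medians over 80 genes). Among the 1000 most abundant genes of a library there were 26 members in labelled Erk-/- MII, 17 in wild-type MII, 59 in Erk-/- GV and 58 in wild-type GV.

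**Figure D1:**
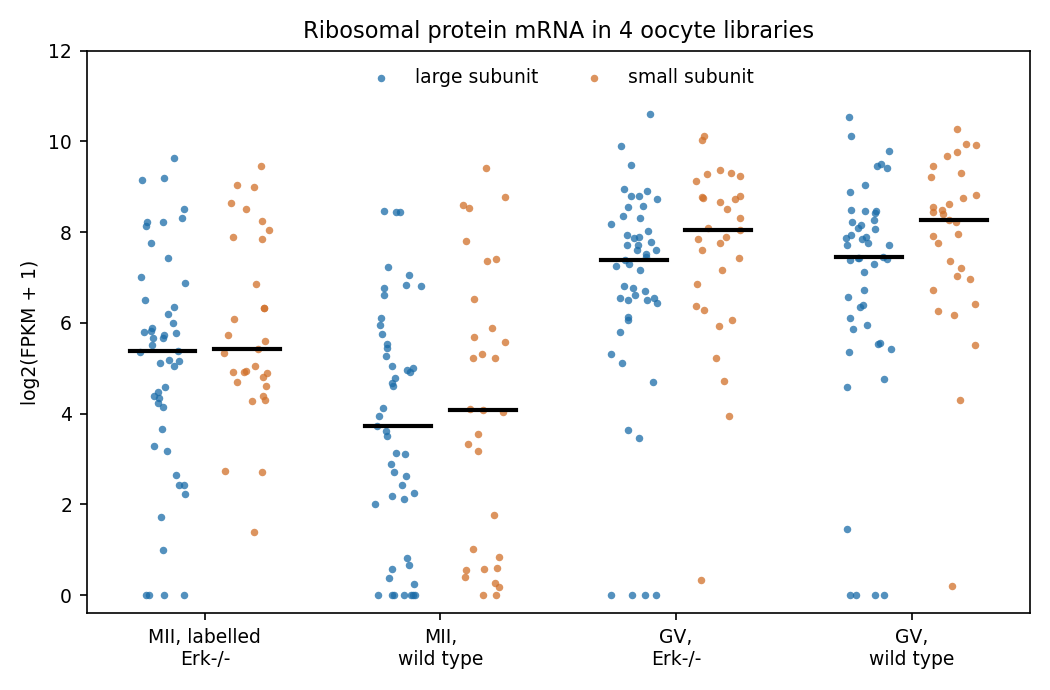
Level of each of the 80 ribosomal protein genes, as log2(FPKM + 1), in the 4 libraries, with large and small subunit genes side by side (points) and their medians (black bars). Medians of large subunit genes were 40.6 and 12.2 FPKM in labelled Erk-/- and wild-type MII and 165 and 173 FPKM in Erk-/- and wild-type GV, and the points reach furthest down in wild-type MII.

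Genes of the same particle were far from equal in level, and they were least equal in wild-type eggs. The interquartile range of log2(FPKM + 1) over the 80 members was 2.59 in labelled Erk-/- MII and 4.96 in wild-type MII, against 2.19 in Erk-/- GV and 2.13 in wild-type GV. Members under 1 FPKM numbered 5 in labelled Erk-/- MII, 21 in wild-type MII and 5 in each GV library. At the other end, members of at least 300 FPKM numbered 11 in labelled Erk-/- MII, 7 in wild-type MII, 26 in Erk-/- GV and 29 in wild-type GV. The 5 most abundant members held 33.0% of the members' FPKM in labelled Erk-/- MII and 42.4% in wild-type MII, but 24.9% in Erk-/- GV and 23.5% in wild-type GV. They were Rplp1, Rps12, Rpl32, Rpl41 and Rps2 in labelled Erk-/- MII and Rps12, Rps28, Rps2, Rps21 and Rplp1 in wild-type MII. In Erk-/- GV they included Rpl35, Rps21, Rpl41 and Rpl39, and in wild-type GV they included Rpl39, Rps21, Rpl41 and Rps14. Across the 76 tested members, Spearman's rho between levels was 0.80 for the GV libraries of both genotypes and 0.72 for the MII libraries, where genes share transcript length and base composition between libraries. Over all 9990 tested genes it was 0.75 at GV and 0.80 at MII. Between stages it was 0.57 within each genotype for members, against 0.63 in labelled Erk-/- and 0.45 in wild type for all tested genes.

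The filter on low values kept 76 members, 46 of the large and 30 of the small subunit. Rpl26, Rpl30 and Rpl3l were at or near 0 in all libraries, and Rps27 had 1.63 FPKM in labelled Erk-/- MII, 0.207 in wild-type MII, 0.263 in Erk-/- GV and 0.141 in wild-type GV. Rpl3l is a muscle copy of Rpl3, whereas Rpl26, Rpl30 and Rps27 are core genes. The transcripts of Rpl26, Rpl30 and Rps27 shared 71.3%, 76.4% and 98.6% of their 50-base stretches with transcripts of other genes, and the part of this sharing in their low values was not tested. Such sharing ran over the 80 members from 0 to 98.6% with a median of 51.9%, and the sources used here do not say how the authors counted reads with several possible origins. Levels of single members are therefore uncertain wherever copies could take or give reads.

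From GV to MII, ribosomal protein mRNAs were lower in both genotypes, and further down in wild type. In labelled Erk-/- MII against Erk-/- GV, 52 of the 76 tested members were lower and 5 higher, with a median log2 ratio of -2.03. Among all tested genes 35.6% were lower and 22.9% higher, with a median of -0.26. In wild-type MII against wild-type GV, 66 members were lower and 1 higher, with a median of -3.29. There, 49.6% of all tested genes were lower and 20.6% higher, with a median of -0.97. Rpl10l passed the filter only through Erk-/- GV and Rpl9 only through wild-type GV, so each had to be lower in that genotype. Without both, 51 of 74 members were lower in labelled Erk-/- and 65 of 74 in wild type, with the medians unchanged. The median member thus lay 1.77 below the median gene in labelled Erk-/- and 2.32 below it in wild type on the log2 scale. In FPKM, the members of at least 10 FPKM at GV kept a median of 23.8% of their GV level in labelled Erk-/- MII (75 genes) and 7.98% in wild-type MII (74 genes). All genes of that level kept 54.0% in labelled Erk-/- MII and 27.2% in wild-type MII. Members that kept under 5% numbered 6 in labelled Erk-/- MII, or 8%, against 7.92% of all genes, and 26 in wild-type MII, or 35.1%, against 25.4%.

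**Figure D2:**
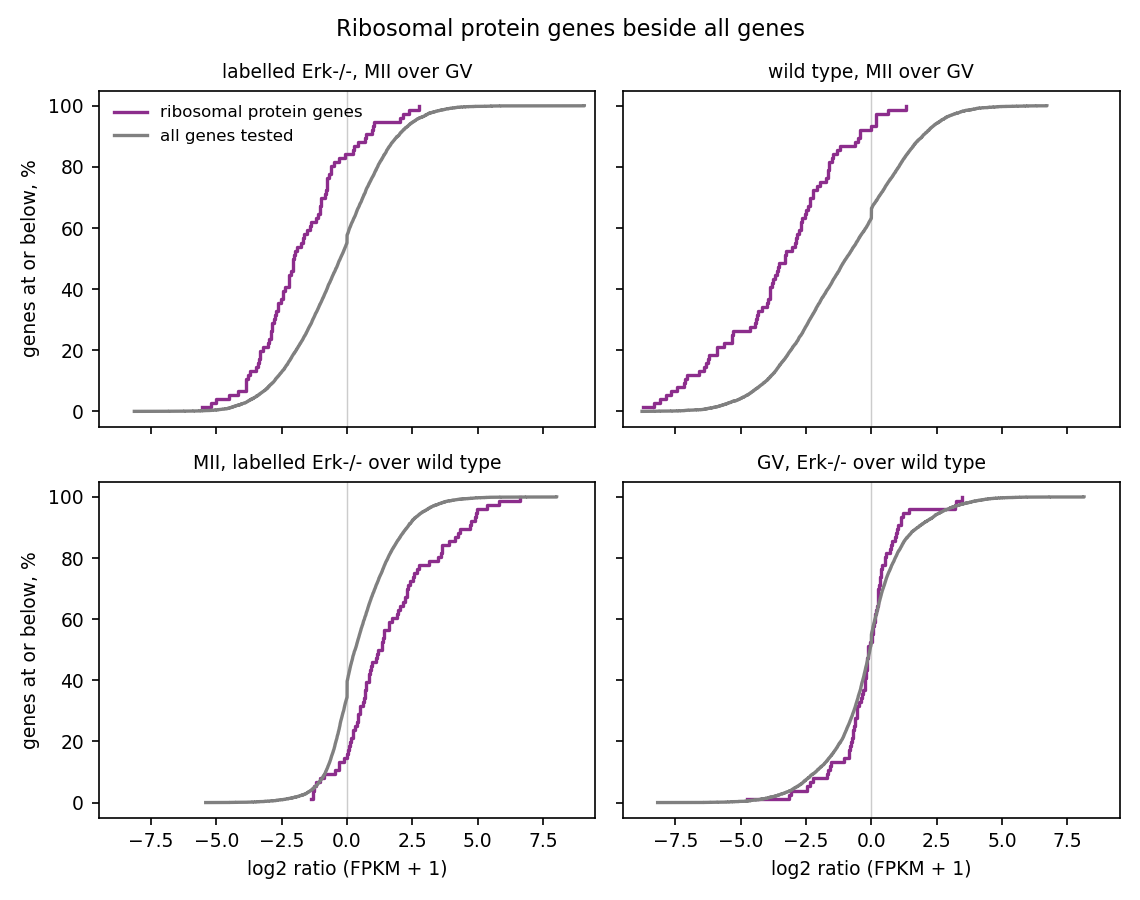
Cumulative share of genes (y axis, percent) at or below each log2 ratio of FPKM + 1 (x axis) for the 76 tested ribosomal protein genes (purple) and all 9990 tested genes (grey). The purple curve lies left of the grey one for MII over GV in labelled Erk-/- (medians -2.03 and -0.26) and in wild type (-3.29 and -0.97), right of it for labelled Erk-/- over wild type at MII (1.26 and 0.31), and near it at GV (-0.12 and -0.06).

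Both genotypes put 49 members lower at MII, or 64.5% of the 76, against 26.7% of all tested genes. A further 15, or 19.7%, were lower in wild type and within 2-fold in labelled Erk-/-, a class that held 18.4% of all tested genes, among them Rpl10, Rpl11, Rplp1, Rplp2, Rps25, Rps29 and Rps3. Rpl38 and Rps15a were lower in wild type and higher in labelled Erk-/-, and Rpl22, Rpl32 and Rps28 were within 2-fold in wild type and higher in labelled Erk-/-. Rps12, Rps2 and Rps27l were within 2-fold in both genotypes. Rpl34 was the 1 member higher in wild type, and Rpl3, Rpl15 and Rpl10l were lower in labelled Erk-/- and within 2-fold in wild type. For Rpl10l, above 0 only in Erk-/- GV, that class was fixed by the filter. Rpl9, among the 15, likewise had to be lower in wild type.

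**Figure D3:**
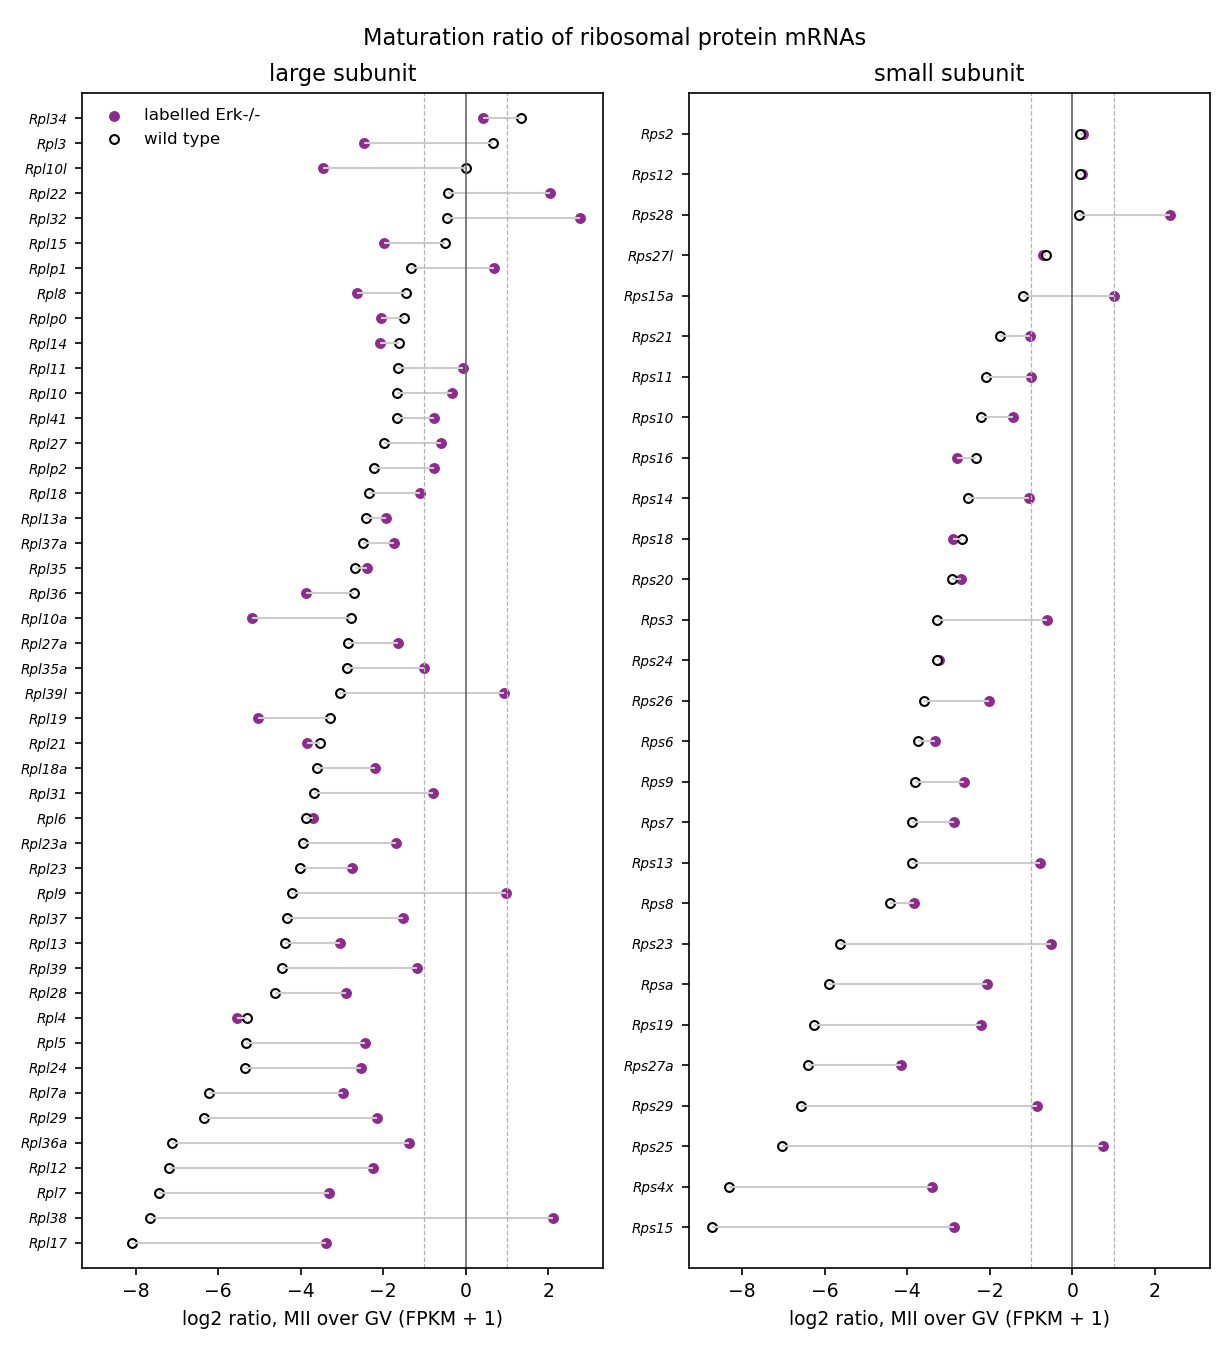
Log2 ratio of MII over GV (x axis, FPKM + 1) of 46 tested large subunit genes (left) and 28 of the 30 tested small subunit genes (right), in labelled Erk-/- (purple) and wild type (open), sorted by the wild-type value, with dashed lines at 2-fold. Wild-type values run from -8.72 (Rps15) to 1.33 (Rpl34), labelled Erk-/- values from -5.54 (Rpl4) to 2.76 (Rpl32).

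At MII, labelled Erk-/- exceeded wild type for most members, and at GV the genotypes were close. Of the 76 tested members, 41 were higher and 6 lower in labelled Erk-/- MII than in wild-type MII, with a median log2 ratio of 1.26. Over all tested genes 31.4% were higher and 7.43% lower, with a median of 0.31. At GV, 8 members were higher and 11 lower in Erk-/-, with a median of -0.12, against 18.4% and 22.9% of all tested genes and a median of -0.06. With each library rescaled to the same total, 11 were higher and 10 lower. Without values above their own upper bound, 4 of 17 members were higher and 4 lower (23.5% each), against 19.4% and 23.4% of all genes. The maturation ratio in labelled Erk-/- minus that in wild type was at least 1 (log2) for 48 members and at most -1 for 7, with a median of 1.42. For all tested genes 41.2% were past 1 and 18.8% past -1, with a median of 0.59. With libraries scaled by the median of gene ratios these were 34 and 11 members, against 32.0% and 27.0% of all genes. Without values above their own upper bound the excess over all genes was lost: 7 of 17 members, or 41.2%, were past 1, with a median of 0.41, against 40.9% of all genes and a median of 0.58. These comparisons share libraries and do not support each other. Of the 12 oocyte markers, 7 were higher in labelled Erk-/- MII than in wild-type MII (58.3%, against 31.4% of all tested genes). None was lower past 2-fold (against 7.43%), and the median was 1.24. Within 2-fold were Dazl (0.74), Gdf9 (-0.10), Oosp1 (-0.25), H1foo (-0.30) and Ddx4 (-0.50). The part of the markers in the members' difference was not tested.

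Large and small subunit genes differed little beside the spread within each. The large subunit held 54.6% of the members' FPKM in labelled Erk-/- MII, 45.4% in wild-type MII, 52.6% in Erk-/- GV and 52.3% in wild-type GV. Small subunit genes had the higher median level in every library: 42.1 FPKM in labelled Erk-/- MII, 15.9 in wild-type MII, 263 in Erk-/- GV and 306 in wild-type GV. For maturation in labelled Erk-/-, the median log2 ratio was -2.01 for the large and -2.04 for the small subunit. In wild type it was -2.96 for the large and -3.67 for the small subunit, a gap of 0.71 beside interquartile ranges of 2.76 and 3.66. The gap was 1.84 over the 13 large and 5 small subunit genes left when values above their own upper bound were set aside. Lower in wild type were 40 of 46 large and 26 of 30 small subunit genes. At MII the medians of labelled Erk-/- over wild type were 1.27 for the large and 1.26 for the small subunit. At GV, all 8 members higher in Erk-/- were of the large subunit, which also held 7 of the 11 lower ones. Rpl10l and Rpl9 passed the filter only through the single library where each was high (Erk-/- GV for Rpl10l, wild-type GV for Rpl9), and had to differ there. Without both, 7 members were higher and 10 lower at GV, and the difference of maturation ratios was past 1 for 47 and past -1 for 6. The 7 members with a maturation ratio lower in labelled Erk-/- than in wild type by 2-fold or more, Rpl10l among them, were likewise of the large subunit. Within the small subunit, levels in wild-type MII had an interquartile range of 5.50 (log2), against 3.51 in the large subunit.

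The mRNAs best kept in wild-type eggs included 3 of the small subunit. Rps12, a protein of the beak of the small subunit (mm9 chromosome 10, 23504989 to 23507015), had 708 FPKM in labelled Erk-/- MII and 678 in wild-type MII, and 599.8 in Erk-/- GV and 596 in wild-type GV. The 4 values of Rps12 lie close together, and it was the most abundant member in wild-type eggs. Rps2, which lines the channel where mRNA enters (chromosome 17, 24857008 to 24858872), had 522 FPKM in labelled Erk-/- MII and 386 in wild-type MII, and 439 in Erk-/- GV and 339 in wild-type GV. Rps28, at the mRNA exit channel, had 402 FPKM in labelled Erk-/- MII and 440.0 in wild-type MII, but 76.6 in Erk-/- GV and 392 in wild-type GV. Its higher maturation ratio in labelled Erk-/- (2.38, against 0.17 in wild type) came with the single low value in Erk-/- GV. With the libraries scaled by the median of gene ratios, the wild-type ratios of Rps12, Rps2 and Rps28 were 1.01, 1.01 and 0.99.

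A few large subunit mRNAs behaved in the same way. Rpl32 had 581 FPKM in labelled Erk-/- MII and 349 in wild-type MII, and 85.1 in Erk-/- GV and 475 in wild-type GV. Rpl22, whose human protein also binds a small RNA of Epstein-Barr virus, had 49.8 FPKM in labelled Erk-/- MII and 42.3 in wild-type MII, and 11.4 in Erk-/- GV and 57.3 in wild-type GV. In both, Erk-/- GV was the low library and the MII libraries were within 2-fold of each other. Rpl34 had 44.7 FPKM in labelled Erk-/- MII and 108 in wild-type MII, and 33.5 in Erk-/- GV and 42.1 in wild-type GV, so that wild-type MII was its high library.

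**Figure D4:**
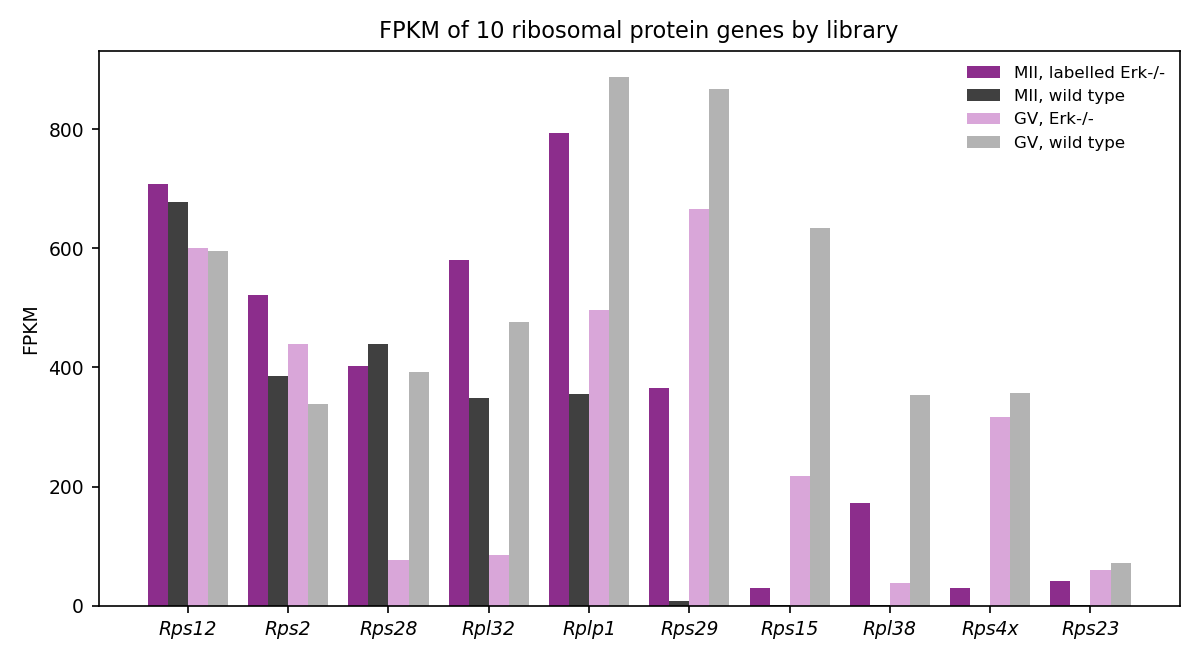
FPKM (y axis, linear from 0) of 10 ribosomal protein genes in the MII library labelled Erk-/-, wild-type MII, Erk-/- GV and wild-type GV (bars, 1 library each, no error). Rps12 and Rps2 stand at 339 FPKM or more in every library, while Rps15, Rps4x and Rps23 are under 1 FPKM in wild-type MII and between 29.1 and 42.1 FPKM in labelled Erk-/- MII.

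At the low end, some small subunit mRNAs were under 1 FPKM in the wild-type egg. Rps23, a protein of the decoding centre, had 42.1 FPKM in labelled Erk-/- MII and 0.461 in wild-type MII, and 60.5 in Erk-/- GV and 71.3 in wild-type GV. Wild-type MII was its low library, 91.4-fold below labelled Erk-/- MII. Rps25, a small subunit protein needed by some viral internal ribosome entry sites, had 24.8 FPKM in labelled Erk-/- MII and 14.4 in Erk-/- GV, and was listed at 0 in wild-type MII and at 130.3 in wild-type GV. Wild-type GV was the high library of Rps25, and labelled Erk-/- MII lay above Erk-/- GV by less than 2-fold.

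The same held for part of the large subunit. Rpl38 (chromosome 11, 114529857 to 114533645), loss of which disturbs the axial skeleton in mice, had 172 FPKM in labelled Erk-/- MII and 0.768 in wild-type MII, and 38.7 in Erk-/- GV and 354 in wild-type GV. It had the largest difference between maturation ratios of the 76 members, 9.77 on the log2 scale, of which -3.16 lay between the GV libraries and 6.61 between the MII libraries. Rpl17, which lines the exit tunnel of the growing peptide, had 39.9 FPKM in labelled Erk-/- MII and 0.293 in wild-type MII, and 426 in Erk-/- GV and 353 in wild-type GV. Rpl12, at the base of the stalk, had 19.9 FPKM in labelled Erk-/- MII and 0.189 in wild-type MII, and 97.5 in Erk-/- GV and 172 in wild-type GV. Rpl7 had 8.04 FPKM in labelled Erk-/- MII and 0.579 in wild-type MII, and 89.5 in Erk-/- GV and 269 in wild-type GV. For all 4 of these genes the 2 MII libraries lay below wild-type GV, and wild-type MII was the lowest of the 4 libraries. Rpl36a had 54.5 FPKM in labelled Erk-/- MII, 143 in Erk-/- GV and 139 in wild-type GV, and was listed at 0 in wild-type MII. Rpl24, part of a bridge between the subunits, had 17.8 FPKM in labelled Erk-/- MII, 108 in Erk-/- GV and 39.7 in wild-type GV, and Rpl29 had 11.6, 54.5 and 80.1 FPKM in the same libraries. Both were listed at 0 in wild-type MII, and an exact 0 can be a failed estimate.

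Not every member was better kept in the library labelled Erk-/-. The 6 that were lower there than in wild-type MII were Rpl36, Rpl19, Rpl14, Rpl34, Rpl10a and Rps16. Rpl19, which takes part in a bridge to the small subunit, had 8.76 FPKM in labelled Erk-/- MII and 23.2 in wild-type MII, and 317 in Erk-/- GV and 237 in wild-type GV. Rpl10a, the protein of the mobile L1 stalk, had 4.38 FPKM in labelled Erk-/- MII and 11.3 in wild-type MII, and 195 in Erk-/- GV and 83.6 in wild-type GV. Rpl36 had 16.8 FPKM in labelled Erk-/- MII and 45.0 in wild-type MII, and 260.2 in Erk-/- GV and 298 in wild-type GV. All 3 were far below GV in both genotypes, and the MII library labelled Erk-/- was the lowest of the 4. Rpl14 had 21.1 FPKM in labelled Erk-/- MII and 53.0 in wild-type MII, and Rps16 had 79.1 and 163. Rpl4, which lines the exit tunnel with Rpl17, had 2.31 FPKM in labelled Erk-/- MII and 5.15 in wild-type MII, and 152 in Erk-/- GV and 243 in wild-type GV. It kept 1.51% of GV in labelled Erk-/- MII and 2.12% in wild-type MII, unlike its neighbour Rpl17, which kept 9.36% and 0.0829%.

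The protein partners of the 5S ribonucleoprotein differed in the share of their GV level kept at MII. Rpl5 and Rpl11 enter the large subunit with 5S RNA, and outside the ribosome they bind Mdm2, the ubiquitin ligase of p53. Rpl5 had 35.3 FPKM in labelled Erk-/- MII and 4.39 in wild-type MII, and 195 in Erk-/- GV and 217 in wild-type GV. Rpl11 had 366 FPKM in labelled Erk-/- MII and 97.4 in wild-type MII, and 382 in Erk-/- GV and 305 in wild-type GV. Rpl11 kept 95.8% of GV in labelled Erk-/- MII and 31.9% in wild-type MII, where Rpl5 kept 18.1% and 2.03%.

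The stalk, an arm of Rplp0 with dimers of Rplp1 and Rplp2 that recruits the translation GTPases, had its dimer-forming members among the more abundant. Rplp1 (chromosome 9, 61761090 to 61762317) had 794 FPKM in labelled Erk-/- MII and 355 in wild-type MII, and 496 in Erk-/- GV and 887 in wild-type GV. Rplp2 had 280.0 FPKM in labelled Erk-/- MII and 149.5 in wild-type MII, and 481 in Erk-/- GV and 706 in wild-type GV. Their scaffold Rplp0 had 49.7 FPKM in labelled Erk-/- MII and 61.2 in wild-type MII, and 209 in Erk-/- GV and 173 in wild-type GV. The dimer-forming pair was above wild type in labelled Erk-/- MII and below it in Erk-/- GV, and Rplp0 the other way round, within 2-fold except for Rplp1 at MII (log2 ratio 1.16).

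Several members also have roles in signalling or disease. Rps6, the substrate of the S6 kinases and of the ERK-activated RSK kinases, had 5.61 FPKM in labelled Erk-/- MII and 2.38 in wild-type MII, and 65.6 in Erk-/- GV and 44.4 in wild-type GV. Its MII values were below its GV values in both genotypes, and labelled Erk-/- MII was 2.35-fold above wild-type MII. Rps3, at the mRNA entry site, had 23.4 FPKM in labelled Erk-/- MII and 1.03 in wild-type MII, and 36.5 in Erk-/- GV and 18.6 in wild-type GV. Rpsa, also known as the laminin receptor precursor, had 18.6 FPKM in labelled Erk-/- MII and 0.783 in wild-type MII, and 81.7 in Erk-/- GV and 105 in wild-type GV. Labelled Erk-/- MII exceeded wild-type MII by 22.6-fold for Rps3 and 23.8-fold for Rpsa. Rps19, the gene most often mutated in human Diamond-Blackfan anaemia, had 29.8 FPKM in labelled Erk-/- MII, 142 in Erk-/- GV and 75.6 in wild-type GV, and was listed at 0 in wild-type MII. Rps14, lost in the human 5q deletion syndrome, had 303 FPKM in labelled Erk-/- MII and 168 in wild-type MII, and 628 in Erk-/- GV and 976 in wild-type GV. Rps27a, made as a fusion with ubiquitin, had 5.53 FPKM in labelled Erk-/- MII and 0.478 in wild-type MII, and 116 in Erk-/- GV and 125 in wild-type GV.

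Duplicated members were set beside their partners. Rpl39, a small protein inside the exit tunnel, had 317 FPKM in labelled Erk-/- MII and 67.5 in wild-type MII, and 717 in Erk-/- GV and 1488 in wild-type GV. Its germline-enriched copy Rpl39l (chromosome 16, 10170321 to 10175004) had 127 FPKM in labelled Erk-/- MII and 24.5 in wild-type MII, and 66.1 in Erk-/- GV and 208 in wild-type GV. Both copies were highest in wild-type GV and lowest in wild-type MII. Rps27l, a p53-induced copy of Rps27, had 264 FPKM in labelled Erk-/- MII and 224 in wild-type MII, and 431 in Erk-/- GV and 347 in wild-type GV. Thus the copy was among the best kept members in a tissue where Rps27 itself was listed under 2 FPKM, and none of the stretches of Rpl39l and 22.4% of those of Rps27l were shared with other transcripts. Rpl10, which joins the large subunit last, in the cytoplasm, had 299.9 FPKM in labelled Erk-/- MII and 113 in wild-type MII, and 375 in Erk-/- GV and 361 in wild-type GV. Its testis-enriched copy Rpl10l was listed at 0 in all libraries but Erk-/- GV, where it had 10.03 FPKM, and it passed the filter through that library alone. Rpl3, at the peptidyl transferase centre, had 3.72 FPKM in labelled Erk-/- MII and 3.34 in wild-type MII, and 25.05 in Erk-/- GV and 1.76 in wild-type GV. The muscle copy Rpl3l was listed at 0 in every library.

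At GV, the members that differed were few and of opposite sign. Rpl8, near the peptidyl transferase centre, had 220 FPKM in Erk-/- GV and 23.1 in wild-type GV, and 34.5 in labelled Erk-/- MII and 7.80 in wild-type MII. Its log2 ratio at GV was 3.19, and that of Rpl3 was 3.24. Rpl24, Rpl10a, Rpl23, Rpl35 and Rpl15 were higher by log2 ratios of 1.42, 1.21, 1.14, 1.12 and 1.004. Rpl35 reached 1564 FPKM in Erk-/- GV, the highest value of any member in any library, against 719 in wild-type GV. On the low side were Rpl9 (listed at 0 in Erk-/- GV and at 26.2 FPKM in wild-type GV, the library through which alone it passed the filter), Rpl38, Rps25, Rpl32, Rps28 and Rpl22, with log2 ratios of -4.77, -3.16, -3.09, -2.47, -2.34 and -2.24. The small subunit had none higher and 4 lower at GV.

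Some of the most abundant members were also among those kept at an intermediate level. Rps21 had 512 FPKM in labelled Erk-/- MII and 367 in wild-type MII, and 1039 in Erk-/- GV and 1242 in wild-type GV. Rpl41, the shortest protein of the ribosome, had 567 FPKM in labelled Erk-/- MII and 348 in wild-type MII, and 960.3 in Erk-/- GV and 1113 in wild-type GV. For both, the order of the libraries was wild-type MII, labelled Erk-/- MII, Erk-/- GV and wild-type GV. Rps29, a zinc-binding protein of the small subunit head, kept 55.0% of GV in labelled Erk-/- MII and 0.933% in wild-type MII. Rps4x, encoded on the X chromosome, kept 9.21% in labelled Erk-/- MII and 0.0350% in wild-type MII, the lowest share of any member with a value above 0 there.

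A further 25 tested members, 15 of the large and 10 of the small subunit, moved in 1 direction. Compared with GV, 21 were lower in labelled Erk-/- MII and all 25 in wild-type MII, with median log2 ratios of -2.02 in labelled Erk-/- and -3.58 in wild type. Of all tested genes 35.6% were lower in labelled Erk-/- and 49.6% in wild type. At MII, 14 were higher in labelled Erk-/- than in wild type and none was lower, against 31.4% and 7.43% of all tested genes. At GV none was past 2-fold in either direction. They ran from 4.35 (Rpl6) to 235 FPKM (Rps13) in labelled Erk-/- MII and from 3.04 (Rpl21) to 133 FPKM (Rpl27) in wild-type MII. In Erk-/- GV they ran from 68.6 (Rpl6) to 623 FPKM (Rps10), and in wild-type GV from 45.3 (Rpl21) to 701 FPKM (Rps13). Rpl7a had the largest excess at MII, with 55.7 FPKM in labelled Erk-/- MII and 3.57 in wild-type MII, and 444 in Erk-/- GV and 340.3 in wild-type GV. Rps18 had the lowest genotype ratio at MII, -0.29 on the log2 scale, and Rps20 the one nearest to equality, with 39.6 FPKM in labelled Erk-/- MII and 38.5 in wild-type MII, and 263 in Erk-/- GV and 298 in wild-type GV. Because these genes were grouped from those not described one by one, after their values were seen, their counts are a description only. With the extremes taken out, it was largely fixed in advance that none was lower at MII and none past 2-fold at GV.

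Ribosomal proteins that the rule does not take were closer to all genes than to the members in labelled Erk-/- maturation. Of the 7 tested, 3 were lower (42.9%, against 35.6% of all genes) and 1 higher (14.3%, against 22.9%) there. Their median log2 ratio was -0.57, against -2.03 for members and -0.26 for all genes. In wild type 6 were lower (85.7%, against 49.6% of all genes), with a median of -2.08, against -3.29 for members and -0.97 for all genes. Fau, which carries Rps30 behind a ubiquitin-like protein, had 173 FPKM in labelled Erk-/- MII and 61.4 in wild-type MII, and 258 in Erk-/- GV and 328 in wild-type GV. Gnb2l1, the scaffold protein RACK1 on the small subunit, had 83.0 FPKM in labelled Erk-/- MII and 89.2 in wild-type MII, and 65.4 in Erk-/- GV and 115 in wild-type GV.

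Other mRNAs known to carry the 5′ tract were less uniformly low. Of 20 listed and tested, 11 were lower and 4 higher at MII in labelled Erk-/-, with a median log2 ratio of -1.63. These were 55% and 20%, against 35.6% and 22.9% of all tested genes, whose median was -0.26. In wild type 12 were lower and 2 higher, with a median of -2.11. Those were 60% and 10%, against 49.6% and 20.6% of all tested genes, whose median was -0.97. In labelled Erk-/- MII against wild-type MII, 8 were higher (40.0%, against 31.4% of all tested genes) and none lower (against 7.43%). Eef1a1, the elongation factor that delivers tRNA, had 61.1 FPKM in labelled Erk-/- MII and 35.7 in wild-type MII, and 698 in Erk-/- GV and 545 in wild-type GV. Eef2, which drives translocation, had 16.5 FPKM in labelled Erk-/- MII and 5.99 in wild-type MII, and 139 in Erk-/- GV and 147 in wild-type GV. By contrast, Npm1, a nucleolar chaperone, had 357 FPKM in labelled Erk-/- MII and 431 in wild-type MII, and 289 in Erk-/- GV and 283 in wild-type GV.

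Among 16 tested regulators of these mRNAs, 2 were lower and 4 higher at MII in labelled Erk-/-, with a median of 0.07. These were 12.5% and 25%, against 35.6% and 22.9% of all tested genes, whose median was -0.26. In wild type 9 were lower and 3 higher, with a median of -1.33. Those were 56.25% and 18.75%, near the 49.6% and 20.6% of all tested genes, whose median was -0.97. Mtor had 19.3 FPKM in labelled Erk-/- MII and 15.4 in wild-type MII, and 17.7 in Erk-/- GV and 23.7 in wild-type GV, the 4 libraries lying within 2-fold. Larp1, which binds the capped tract, had 2.59 FPKM in labelled Erk-/- MII and 0.0274 in wild-type MII, and 0.904 in Erk-/- GV and 8.52 in wild-type GV. Rps6ka1, an RSK kinase that ERK activates, had 3.99 FPKM in labelled Erk-/- MII and 0.0297 in wild-type MII, and 2.91 in Erk-/- GV and 12.0 in wild-type GV.

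The machinery that makes ribosomes was lower as well. Of 63 tested ribosome biogenesis genes, 36 were lower and 5 higher at MII in labelled Erk-/-, with a median of -1.22. These were 57.1% and 7.94%, against 35.6% and 22.9% of all tested genes. In wild type 41 were lower and 7 higher, with a median of -1.72. Those were 65.1% and 11.1%, against 49.6% and 20.6%. Between the MII libraries, 19 of these genes were higher in labelled Erk-/- and 7 lower, with a median of 0.27, near the 0.31 of all genes. The shares were 30.2% and 11.1%, against 31.4% and 7.43% of all tested genes. Ncl, the nucleolar RNA-binding protein nucleolin, had 5.52 FPKM in both MII libraries, and 64.3 in Erk-/- GV and 83.9 in wild-type GV. Of 18 tested genes of RNA polymerase I and III and 5S RNA synthesis, 10 were lower (55.6%) and 2 higher (11.1%) at MII in labelled Erk-/-. Their median was -1.15. In wild type 14 were lower (77.8%) and 2 higher (11.1%), with a median of -2.08. Rrn3, the factor that recruits RNA polymerase I, had 8.03 FPKM in labelled Erk-/- MII and 1.29 in wild-type MII, and 10.9 in Erk-/- GV and 18.01 in wild-type GV.

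Members share features that the rule did not use. Their transcripts were short, with a median of 802 bases in 1 chosen GENCODE M21 transcript per gene, against 2860 over 9141 tested genes with an annotation, and their 3′ untranslated regions had a median of 90 bases against 900. Within the 76 tested members, Spearman's rho of the maturation ratio with transcript length was -0.04 in wild type and -0.28 in labelled Erk-/-. With the length of the coding sequence it was -0.08 in wild type and -0.48 in labelled Erk-/-, as a description. Small nucleolar RNAs lay inside 28 of the 76 tested members, or 36.8%, against 2.02% of tested genes. The median wild-type maturation ratio was -3.73 for these hosts and -2.96 for the other 48 members.

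A cytoplasmic polyadenylation element, searched as TTTTAT or TTTTAAT on the sense strand of the 3′ untranslated region, was found in 16 of the 76 tested members, or 21.1%, against 59.3% of tested genes, whose 3′ regions are longer. Both spellings can overlap a longer T run, and a match is only a description of these letters. The 16 members with an element had a median maturation ratio of -1.69 in labelled Erk-/- and -2.66 in wild type. The 60 without one had medians of -2.18 in labelled Erk-/- and -3.78 in wild type. Over all tested genes the medians with an element were 0.04 in labelled Erk-/- and -0.31 in wild type, and without one -0.83 and -2.04. Sites are shown for Rps2 and Rpl32, kept in wild-type eggs, and for Rpl5 and Rpsa, which were low there, with the element in capitals (GRCm38, chr17:24721884-24721903, plus strand, chr6:115805530-115805549, minus, chr5:107908972-107908991, plus, and chr9:120131674-120131693, plus, in that order).
Rps2: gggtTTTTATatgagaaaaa
Rpl32: gtgcatgTTTTATgtttaaa
Rpl5: ctgaactTTTTAATaaatga
Rpsa: tttttttTTTTAATgtaaaa
Between the element and the annotated end lay 36 bases in Rps2, 32 in Rpl32, 20 in Rpl5 and 682 in Rpsa. Elements thus stood in members of either kind.

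Sharing of sequence with other genes was compared as well. Members at or above the median share of 50-base stretches found elsewhere had a median wild-type maturation ratio of -3.87, against -2.88 for the rest. In the deposited files the value also lay above its own upper bound for many members, 41 in labelled Erk-/- MII, 26 in wild-type MII, 55 in Erk-/- GV and 58 in wild-type GV, so no bounds are quoted for members. Among genes of at least 10 FPKM these made up 63.1% of members in labelled Erk-/- MII, 57.8% in wild-type MII, 73.3% in Erk-/- GV and 78.4% in wild-type GV. The share over all genes of that level was 17.3% in labelled Erk-/- MII, 19.8% in wild-type MII, 14.3% in Erk-/- GV and 17.9% in wild-type GV. Leaving such genes out of a comparison kept 20 members for labelled Erk-/- maturation, of which 13 were lower (65.0%, against 35.7% of all genes), and 18 for wild-type maturation, of which 12 were lower (66.7%, against 49.5%).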

How the data were processed

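Per the labels' protocols, RNA of 60 oocytes per library was prepared with a column kit, and mRNA was made into libraries for paired-end Illumina sequencing. The authors deposited FPKM with a lower and an upper bound per gene, per the file headers. CASAVA 1.8, TopHat and mouse build mm9 are named in the submitters' processing notes. The sources used here do not give the program behind FPKM, its annotation, the confidence level of the bounds, or how reads with several possible origins were counted. FPKM holds no counts, so depth is unknown. Among all genes of at least 10 FPKM the number of genes was 4397 in labelled Erk-/- MII, 3570 in wild-type MII, 5543 in Erk-/- GV and 5682 in wild-type GV.

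FPKM was summed per symbol (23813 rows, 23309 symbols) and compared as log2((FPKM + 1)/(FPKM + 1)), which understates changes of low genes. Genes that averaged 1 FPKM or more over the libraries were compared, and 2-fold was the rule of size. For single genes, folds and percentages are plain FPKM ratios. With 1 library per group there was no test. Locus starts were raised by 1 to count from 1, since transcript length equalled end minus start for 9169 of 21276 genes and end minus start plus 1 for 558. GENCODE M21 (GRCm38) gave transcript features and 3′ sites, with 1 transcript per gene chosen by APPRIS tag, support level and transcript number. Sequences around starts are from RefSeq (GRCm38.p6), where 60 of the 80 members matched by symbol. Python 3.11.15, numpy 2.4.6, pandas 2.3.3 and matplotlib 3.10.9 were used, and the scripts were tested on simulated data.

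Genes were named by a rule: the 6 highest and 6 lowest ratios of each comparison among members of at least 10 FPKM, the 5 most abundant per library, members listed at 0 in 1 library with at least 10 FPKM elsewhere, and listed stalk, signalling and duplicated members. The members and lists were chosen with earlier results of these data known. A gene listed as a check of the genotype and a few genes that the rule would name are not reported here by name or value, though members among them are part of the counts, medians and sums.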

Additional observations from a re-analysis of the deposited data

Results flagged for a closer look

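In 9 members, or 11.8% of the 76, the maturation ratio was above 0 in 1 genotype and below 0 in the other, past 2-fold in at least 1 of them, with the ratios at least 2-fold apart and at least 10 FPKM in some library. The same was true of 11.3% of all tested genes, so the share is near the background. Both ratios were past 2-fold only in Rpl38 and Rps15a. Each value below is the log2 ratio of MII over GV in labelled Erk-/- minus that in wild type, and each rests on 1 library per group, so the difference was not tested. Above 0 in labelled Erk-/- and below 0 in wild type were Rpl38 by 9.77, Rps25 by 7.78, Rpl9 by 5.19, Rpl39l by 3.97, Rpl32 by 3.20, Rpl22 by 2.47, Rps15a by 2.20 and Rplp1 by 1.997. The opposite was seen in Rpl3, with a difference of -3.12.

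In each of the 9 genes the GV libraries differed in the sense that widens the gap. The 9 were picked on ratios that contain these GV values, so the pick itself favours that sense. The log2 ratio of Erk-/- over wild type at GV was -4.77 for Rpl9, -3.16 for Rpl38, -3.09 for Rps25, -2.47 for Rpl32, -2.24 for Rpl22, -1.69 for Rps15a, -1.64 for Rpl39l and -0.84 for Rplp1. For Rpl3 it was 3.24, which also widens its gap of opposite sign. Rpl9 and Rps25 were each listed at 0 in 1 library, Rpl9 in Erk-/- GV and Rps25 in wild-type MII. Rpl9 was under 1 FPKM in both MII libraries and passed the filter only through wild-type GV, on which its difference rests. Scaled by the median of gene ratios, Rpl22 and Rpl32 were above GV in both genotypes, with wild-type ratios of 0.38 each.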

How the results depend on the processing

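No paired analysis was possible because each group holds 1 library, which also leaves no replicate to leave out. Results were recomputed under 12 alternatives. They covered pseudocounts, filters, scalings, values at 0, values above their own upper bound, rows and transcript length. The midpoint of the bounds and shared sequence, also among the 12, were chosen after seeing the data. Of 248 recomputed values, 208 stayed within 1.5-fold of the reported one and 40 moved further. With all 80 members on 1 row, keeping only such genes had to leave every member count, median and gap as reported. Of medians and subunit gaps, 10 changed sign, each from a reported value within 0.14 of 0: the members' median at GV (-0.12, and 0.24 without values above their own upper bound) and 9 gaps between large and small subunit. Scaling by the median of gene ratios moved the median of all genes to -0.24 for wild-type maturation and to 0 for genotype at MII. The members' medians were then -2.58 for wild-type maturation and 0.81 for the difference of maturation ratios. Relative to all genes, the wild-type median stayed at -2.34 (reported -2.32), and at MII it was 0.73 (reported 0.95). There, 33 members were higher (43.4%, against 24.6% of all genes) and 7 lower (9.21%, against 17.8%).

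Smaller sets gave smaller counts. Without values above their own upper bound the shares moved too (lower in wild-type maturation, 66.7% against 86.8% reported). Lower were 13 of 20 members in labelled Erk-/- maturation, 12 of 18 in wild-type maturation (median -2.56) and 4 of 17 at GV. At MII 16 of 34 were higher (47.1%, against 32.1% of all genes). In the difference of ratios 7 of 17 were higher (median 0.41, against 0.58 for all genes). The large minus small subunit medians were then 0.71 for labelled Erk-/- maturation, 1.84 for wild-type maturation, -1.53 at MII and -2.21 for the difference, with 5 to 9 small subunit genes. The cause was not tested. With transcripts of at most 1200 bases, 29 of 44 members were lower in labelled Erk-/- maturation (65.9%, against 37.0% of 737 genes). In wild-type maturation 40 were lower (90.9%, against 48.2%), and at GV 5 (11.4%, against 25.1%). At MII 27 were higher (61.4%, against 40.4%), and in the difference 28 (63.6%, against 47.9%). Large minus small was 0.81 for labelled Erk-/- maturation and 0.60 for the difference. With under 50% of the sequence shared, 26 of 37 were lower in labelled Erk-/- maturation (70.3%, against 35.4% of 9102 genes). Sharing was scored for members only, so the other genes were not chosen by it. In wild-type maturation 31 were lower (83.8%, against 49.8%), and at GV 6 (16.2%, against 22.7%). At MII 16 were higher (43.2%, against 31.3%), and in the difference 22 (59.5%, against 41.4%). The spread between members in wild-type MII was 5.95 with a pseudocount of 0.1. Without counts or replicates, neither counting error nor the spread between pools of oocytes can be given.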
